A study of Mus musculus with 20 samples.

Results

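The 40 genes described here encode the enzymes of glycolysis and of the pentose phosphate pathway, the transporters and kinases that decide what becomes of pyruvate, and the subunits, regulators and target genes of the hypoxia-inducible factors. They were given as a list of gene symbols, and each was measured as the sum of the FPKM values (fragment counts scaled by transcript length and library size) of its Ensembl transcripts in colon RNA of 20 mice. All 40 of the 40 symbols had transcripts in the tables, out of 32991 genes in all, and all 40 passed the filter on low values in each comparison.

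Glycolysis splits glucose into pyruvate in the cytosol, and the pentose phosphate pathway branches off it to make NADPH and ribose. In tissue short of oxygen, hypoxia-inducible factors escape prolyl hydroxylation, accumulate and raise the transcription of glucose transporters, glycolytic enzymes and the lactate exporter. The colonic epithelium lies beside an almost oxygen-free lumen and lives largely on butyrate, whereas neutrophils that enter an inflamed mucosa rely on glycolysis.

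The study asked whether the traditional formula Pien Tze Huang (PZH) changes colitis-associated colorectal cancer in mice. Male C57BL/6 mice with no genetic modification formed 4 groups of 5. Control mice received water by gavage, and PZH mice received 250 mg/kg of PZH by gavage on each of 91 days. AOM/DSS mice, called Model in the labels, received water by gavage, an injection of 12.5 mg/kg of the colon carcinogen azoxymethane (AOM) and 4 cycles of 5 days of 2% dextran sulfate sodium (DSS), an irritant that injures the colonic epithelium, in the drinking water. PZH + AOM/DSS mice received all 3 agents. Each library came from the colon of 1 mouse. The animals' age, the segment of colon taken and whether a tumor lay in it are not given in the sources used here.

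Colon markers were present in all groups: the summed FPKM of 6 epithelial genes lay between 740 and 1849 in every mouse. Among the 6, Epcam was listed at 0 in 13 of the 20 mice, all 5 Control mice among them, which can be a failed estimate. Epcam made up 844 FPKM of the highest sum, in AOM/DSS mouse 23, and 0 of the lowest, in AOM/DSS mouse 44. The range of the sums therefore depends in part on whether Epcam had a value. A protocol in the labels mentions the abdominal aorta, and a tissue list of 4 liver and aorta genes summed to 6.65 to 26.2 FPKM.

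Several libraries stood apart. Control mice 17 and 50 carried 298.8 and 249.4 FPKM of 5 squamous epithelium markers (keratins and Trp63), against 0.824 to 1.64 in the other 3 Control mice. The same Control mice held 29.6 and 26.0 FPKM of 4 neutrophil markers, against 0.103 to 0.983 in the others. Their sums of 6 skeletal muscle markers were 65.03 and 22.13 FPKM, against 7.185 to 11.12 in the others. Mouse 50 also held 3639 FPKM of 5 smooth muscle markers, against 1646 to 1986 in the other Control mice. Mice 17 and 50 were the 2 highest Control mice in 14 of the 40 genes (35%), a position they held in 12% of 16936 genes. PZH + AOM/DSS mouse 35 had 251 FPKM of neutrophil markers, inside the AOM/DSS range of 87.1 to 494, while the other 4 mice of its group had 2.86 to 82.5. Results that rest on these mice are given with and without them. For 5 of the 40 genes (Gapdh, Pfkfb4, Eno2, Ankrd37 and Pfkp) 4.74% to 39.98% of the FPKM lay in protein-coding transcripts, so their sums are mostly non-coding RNA such as retained introns. In bulk tissue, fewer cells of a type and less RNA per cell cannot be told apart.

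**Figure D1:**
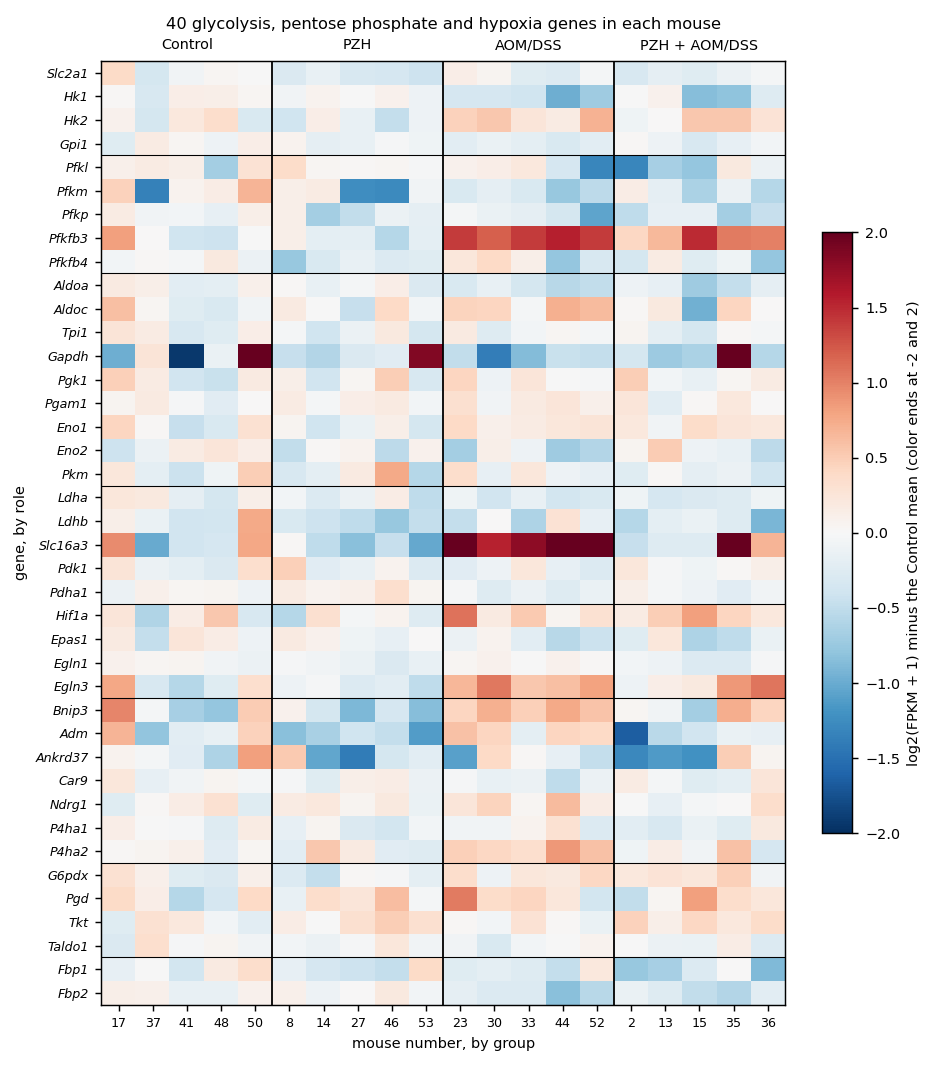
Each column is 1 mouse and each row 1 of the 40 genes, ordered by role. Color gives log2(FPKM + 1) minus the Control mean, red above and blue below, with colors ending at -2 and 2. Slc16a3 and Pfkfb3 are red in all 5 AOM/DSS mice, and Gapdh swings between mice within groups.

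**Figure D2:**
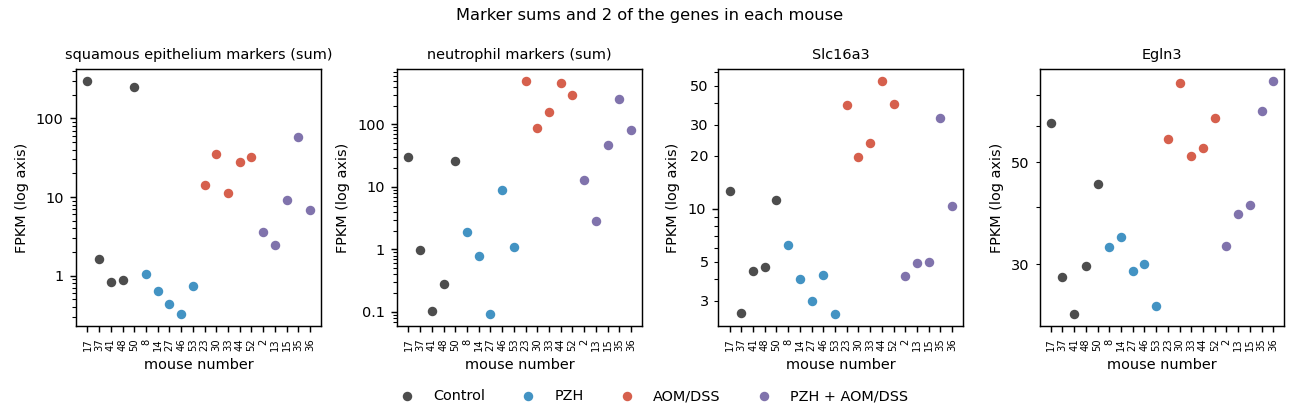
Summed FPKM of 5 squamous epithelium markers and of 4 neutrophil markers, and FPKM of Slc16a3 and Egln3, in each of the 20 mice on log axes, colored by group. Control mice 17 and 50 are high on both marker sums and are the 2 highest Control mice for Slc16a3 and Egln3, and PZH + AOM/DSS mouse 35 lies among the AOM/DSS mice for neutrophil markers and Slc16a3.

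The first comparison asked which of these genes differ between colon with the disease model and untreated colon. In AOM/DSS mice the lactate exporter Slc16a3 was 4.92-fold its Control mean (log2 fold change on the FPKM + 1 scale 2.25, SE 0.40) and the glycolysis activator Pfkfb3 2.94-fold (1.39, SE 0.22). The collagen prolyl hydroxylase P4ha2 and the prolyl hydroxylase Egln3 rose less, while the hexokinase Hk1, the bisphosphatase Fbp2 and the aldolase Aldoa fell. With limma across 15812 genes and Benjamini-Hochberg adjustment at 0.05, 4 of the 40 genes were higher, when 16.4% of all genes tested were, and 3 were lower, when 7.23% of all genes were. The median log2 fold change was -0.05 over the 40 genes and 0.09 over all genes, and 18 of the 40 were positive where 60.0% of all genes were.

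Without adjustment 10 of the 40 passed p under 0.05, against 36% of all genes, and 2 (Slc16a3 and Pfkfb3) also changed more than 2-fold on the FPKM + 1 scale of the fit, against 7.71%. The 5 AOM/DSS values lay above all 5 Control values for Slc16a3, Pfkfb3 and P4ha2, where 13% of all genes did so, and below them for Hk1 and Fbp2, where 5.43% of all genes did so. As shares of the 40 genes these were 25%, 5%, 7.5% and 5%, all below the genome-wide shares. With median-of-ratios scaling of the libraries, 12.1% of all genes were higher and 10.2% lower, and the 40 genes gave 3 higher and 4 lower: Egln3 was no longer called (adjusted p = 0.103, limma) and Gpi1, the isomerase after hexokinase, was called lower (log2 fold change -0.33, adjusted p = 0.0238, limma).

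**Figure D3:**
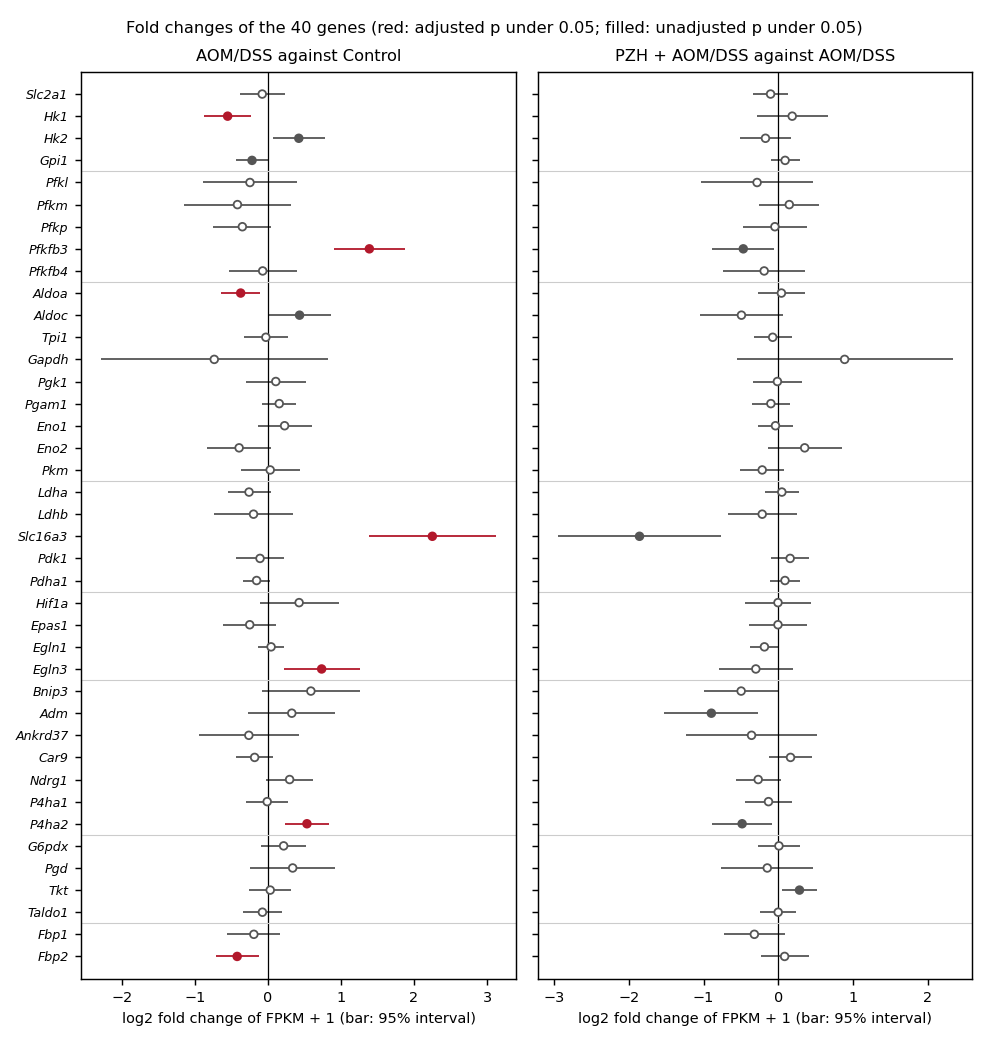
Log2 fold change of FPKM + 1 for the 40 genes, by role, in AOM/DSS against Control (left) and PZH + AOM/DSS against AOM/DSS (right), 5 mice a group, with 95% intervals from limma. Red marks an adjusted p under 0.05 and a filled point an unadjusted p under 0.05. Slc16a3 lies farthest from 0 in both panels, at 2.25 and -1.86.

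Glucose enters through Slc2a1, the basal glucose transporter, and is phosphorylated by the hexokinases Hk1 and Hk2. Hk1 measured 59.3, 46.6, 63.6, 63.1 and 59.7 FPKM in Control mice 17, 37, 41, 48 and 50, the order used for Control throughout. In AOM/DSS mice 23, 30, 33, 44 and 52 it measured 45.9, 45.7, 44, 28.9 and 35.1 FPKM. The groups did not overlap, and the log2 fold change was -0.55 (SE 0.15, adjusted p = 0.0202, limma).

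Hk2, the inducible hexokinase, had a higher mean in AOM/DSS mice without passing the adjusted threshold. It measured 43.3, 32, 47.6, 52.7 and 32.9 FPKM in Control mice and 57, 60.1, 48.8, 46.1 and 66.6 FPKM in AOM/DSS mice, and the groups overlapped. The log2 fold change was 0.42 (SE 0.16, adjusted p = 0.0818, limma). The share of Hk2 in the sum of both hexokinases was 41.4% ± 3.7 (SD, n = 5) in Control and 58.3% ± 5.1 in AOM/DSS mice. The highest Control share, 45.5%, lay below the lowest AOM/DSS share, 52.5%, and a share within a library does not depend on the scaling between libraries. In PZH mice it was 38.1% ± 4.2, and in PZH + AOM/DSS mice it spread from 39.8% to 65.3%. Slc2a1 averaged 46.3 FPKM in Control and 43.5 FPKM in AOM/DSS mice, and Gpi1 averaged 187 and 160 FPKM. Neither passed adjustment.

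**Figure D4:**
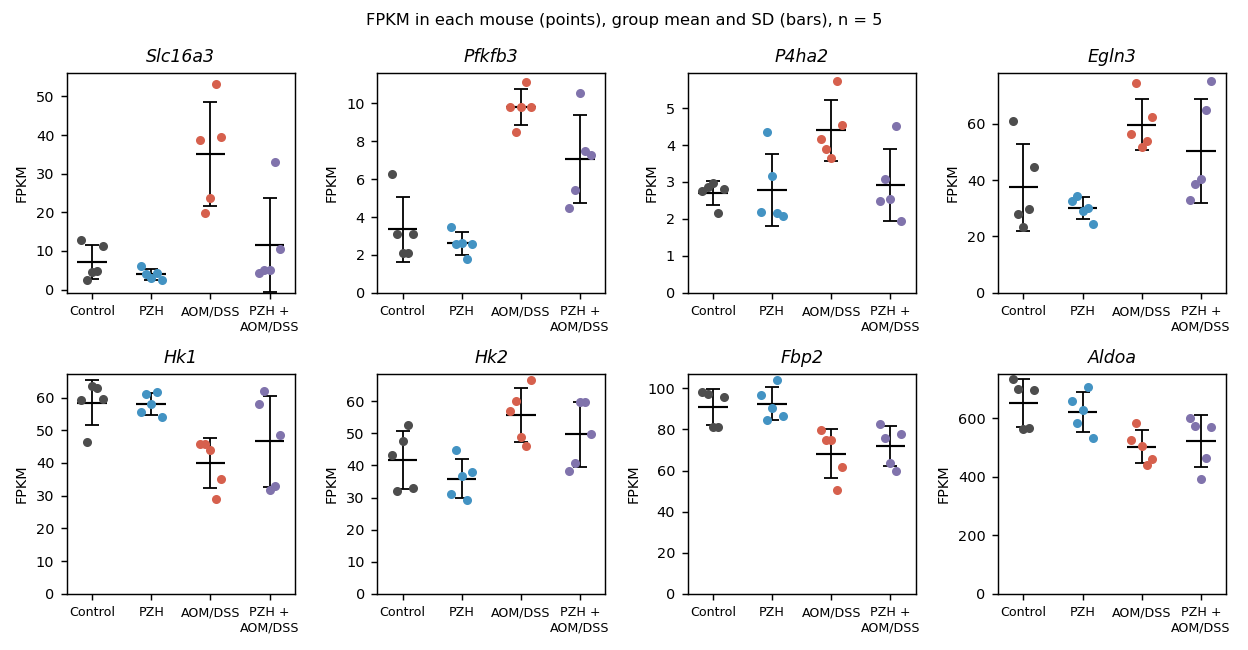
FPKM of 8 genes in each mouse (points, ordered by mouse number within a group), with the group mean and SD (bars, n = 5). The upper row holds the 4 genes called higher with AOM/DSS, and the lower row Hk1, Fbp2 and Aldoa, called lower, with Hk2 beside Hk1. For Slc16a3 the SD bar of PZH + AOM/DSS reaches below 0 because mouse 35 at 32.95 FPKM lies far above the other 4.

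Phosphofructokinase commits glucose to glycolysis, and Pfkfb3 and Pfkfb4 make and remove its activator fructose 2,6-bisphosphate. Pfkfb3 measured 6.28, 3.13, 2.12, 2.08 and 3.11 FPKM in Control mice and 9.83, 8.47, 9.83, 11.1 and 9.83 FPKM in AOM/DSS mice. Mouse 17 was the highest Control mouse and still lay below all AOM/DSS mice. The adjusted p was 0.00147 (limma).

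The sums of AOM/DSS mice 23, 33 and 52 were near-equal, and the transcripts that made them up were not compared mouse by mouse. The 16 Pfkfb3 transcripts in the tables include non-coding ones: 63.9% of its FPKM lay in protein-coding transcripts. On those alone the log2 fold change was 1.01 (SE 0.34) and the call was lost (adjusted p = 0.053, limma), and on its single most abundant transcript it was 0.54 (adjusted p = 0.373, limma). The share of Pfkfb3 in Pfkfb3 + Pfkfb4 was 34.6% ± 11.4 in Control and 63.1% ± 10.6 in AOM/DSS mice, overlapping through mouse 17 at 52.4%. Pfkfb4 itself stood at 5.97 and 5.89 FPKM.

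The 3 phosphofructokinase subunits did not pass the test. Liver-type Pfkl averaged 47.2 FPKM in Control and 41.4 FPKM in AOM/DSS mice, muscle-type Pfkm 5.59 and 3.52 FPKM, and platelet-type Pfkp 73.0 and 58.6 FPKM. Pfkl and Pfkp made up nearly all of their sum in every group, with a mean Pfkm share between 3.30% and 4.49%.

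In lower glycolysis 1 of 9 genes was called. Aldoa, the main aldolase, measured 734, 701, 562, 565 and 697 FPKM in Control mice and 525, 584, 506, 440 and 459 FPKM in AOM/DSS mice. Only AOM/DSS mouse 30 reached into the Control range, and the log2 fold change was -0.37 (SE 0.12, adjusted p = 0.0468, limma). Aldoc, the brain-type aldolase, averaged 9.15 and 12.6 FPKM (log2 fold change 0.43, adjusted p = 0.138, limma). Aldoa nevertheless held 97.5% of the aldolase sum in AOM/DSS mice.

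The enzymes after aldolase were not called. Triose phosphate isomerase Tpi1 averaged 261 FPKM in Control and 254 FPKM in AOM/DSS mice, phosphoglycerate kinase Pgk1 300.02 and 317 FPKM, and phosphoglycerate mutase Pgam1 127 and 142 FPKM. The enolase Eno1 averaged 289 and 330 FPKM, pyruvate kinase Pkm 341 and 344 FPKM, and the neuronal enolase Eno2 2.61 and 1.79 FPKM. The 95% intervals of these 6 genes on the log2 scale all held 0. With Control mice 17 and 50 left out, Eno1 was called higher (0.47, adjusted p = 0.0392, limma).

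Gapdh, the glyceraldehyde phosphate dehydrogenase that the study used as the reference for its qRT-PCR, could not be read as a gene level from these tables. Its Ensembl transcripts summed to 3.96, 10.7, 1.56, 7.89 and 65.3 FPKM in Control mice and 6.09, 5.51, 6.98, 7.36 and 34.2 FPKM in PZH mice 8, 14, 27, 46 and 53. They summed to 5.94, 2.72, 4.31, 6.14 and 6.01 FPKM in AOM/DSS mice and 6.59, 4.9, 5.3, 79.5 and 5.58 FPKM in PZH + AOM/DSS mice 2, 13, 15, 35 and 36. Of the summed FPKM, 4.74% lay in protein-coding transcripts and 63.6% in a single retained-intron transcript. Of the 2 coding transcripts annotated as principal 1 had values, as did 8 of all 13 annotated Gapdh transcripts. The other principal transcript could not be analysed here. The neighbouring steps Tpi1 and Pgk1 averaged 237 to 317 FPKM in every group.

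Pkm is spliced into an M1 form, typical of muscle, and an M2 form, typical of proliferating and epithelial cells, through the choice between a pair of exons. The exons lie on mouse chromosome 9 (GRCm38), M1 at chr9:59675029-59675195 and M2 at chr9:59675568-59675734, both on the plus strand and both 167 bases long. They are shown because the abundance of the 2 transcripts rests on them, with capitals at the 64 bases that differ (61.7% of bases were identical).
Pkm M1 exon: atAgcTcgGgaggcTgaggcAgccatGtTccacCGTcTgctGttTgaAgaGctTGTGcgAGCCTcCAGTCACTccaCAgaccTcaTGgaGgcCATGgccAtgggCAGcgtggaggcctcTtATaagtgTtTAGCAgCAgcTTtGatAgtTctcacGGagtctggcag
Pkm M2 exon: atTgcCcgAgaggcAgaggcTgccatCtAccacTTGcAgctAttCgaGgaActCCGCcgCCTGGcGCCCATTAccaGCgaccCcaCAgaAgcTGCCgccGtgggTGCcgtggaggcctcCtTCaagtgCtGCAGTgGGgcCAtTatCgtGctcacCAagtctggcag

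The M2 transcript dominated in all groups. It averaged 234 ± 105 FPKM in Control mice (SD, n = 5) and 251 ± 88.1 FPKM with AOM/DSS. The M1 transcript averaged 5.18 and 3.28 FPKM, and its share of the pair was at most 6.63% in any mouse. The mean M1 share was 2.23% for Control, 0.934% for PZH, 0.945% for AOM/DSS and 0.891% for the combination, with ranges that overlapped.

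Pyruvate becomes lactate through the lactate dehydrogenases and leaves through the monocarboxylate transporters, or enters mitochondria through pyruvate dehydrogenase. Slc16a3 encodes MCT4, the exporter of highly glycolytic cells. It measured 12.7, 2.56, 4.44, 4.67 and 11.2 FPKM in Control mice and 38.8, 19.8, 23.7, 53.3 and 39.6 FPKM in AOM/DSS mice. The highest Control values were those of mice 17 and 50, and the groups did not overlap (adjusted p = 0.00254, limma). With those 2 mice left out the log2 fold change was 2.82 (SE 0.32, adjusted p = 0.000911, limma). On its single transcript with the highest mean the call was lost at a log2 fold change of 2.69 (SE 1.19, adjusted p = 0.148, limma).

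Slc16a1, which encodes the butyrate and lactate importer MCT1 and is not among the 40, fell in the same comparison. It measured 111, 86.2, 93.7, 104 and 107 FPKM in Control mice and 49.3, 45.4, 49.8, 27.9 and 36.9 FPKM in AOM/DSS mice. The log2 fold change was -1.27 (SE 0.16, adjusted p = 0.000341, limma), and the groups did not overlap. The other 4 genes of this step among the 40 did not pass adjustment. Ldha, the muscle-type lactate dehydrogenase, averaged 628 FPKM in Control and 520.4 FPKM in AOM/DSS mice and the heart-type Ldhb 9.76 and 8.21 FPKM. The inhibitory kinase Pdk1 averaged 21.0 and 19.3 FPKM, and its target, the dehydrogenase subunit Pdha1, 113 and 102 FPKM.

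Of the hypoxia-inducible factors, Hif1a ranged from 14.3 to 32.8 FPKM in Control and from 23.1 to 48.1 FPKM in AOM/DSS mice (log2 fold change 0.43, adjusted p = 0.241, limma). Its paralog Epas1, which encodes HIF-2α, averaged 36.1 and 30.1 FPKM. The share of Hif1a in their sum was 38.5% ± 4.2 in Control and 50.4% ± 6.9 in AOM/DSS mice, and only AOM/DSS mouse 30 overlapped the Control range. Hypoxia-inducible factors are controlled mainly through protein stability, which these tables do not measure.

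The prolyl hydroxylases mark those factors for destruction, and Egln3 is itself one of their targets. Egln3 measured 60.9, 28.1, 23.3, 29.7 and 44.8 FPKM in Control mice and 56.2, 74.3, 51.6, 53.8 and 62.4 FPKM in AOM/DSS mice. Control mouse 17 reached into the AOM/DSS range. The log2 fold change was 0.74 (SE 0.24, adjusted p = 0.0443, limma). With Control mice 17 and 50 left out it was 1.11 (SE 0.14, adjusted p = 0.00162, limma), whereas leaving out Control mouse 37, 41 or 48 or any 1 AOM/DSS mouse ended the call. Egln1, the main oxygen-sensing hydroxylase in most cells, averaged 23.6 and 24.3 FPKM.

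Among 7 hypoxia targets only P4ha2 was called. P4ha2, which hydroxylates collagen prolines, measured 2.75, 2.86, 2.96, 2.15 and 2.8 FPKM in Control mice and 4.15, 3.9, 3.65, 5.75 and 4.54 FPKM in AOM/DSS mice, without overlap (log2 fold change 0.53, SE 0.13, adjusted p = 0.0154, limma). On protein-coding transcripts alone the log2 fold change was 0.68 (adjusted p = 0.00406, limma), and without Control mice 17 and 50 it was 0.56 (adjusted p = 0.0504, limma). Its partner P4ha1 averaged 10.03 and 9.999 FPKM, and the P4ha1 share of the pair was 78.7% ± 1.5 in Control and 69.4% ± 3.7 in AOM/DSS mice, without overlap.

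Bnip3, a mitophagy receptor, depended on the 2 Control mice that stood apart. It measured 35.8, 17.2, 10.9, 9.99 and 25.6 FPKM in Control mice and 24.3, 29.6, 25.1, 30.8 and 26.9 FPKM in AOM/DSS mice. The log2 fold change was 0.59 (SE 0.30, adjusted p = 0.189, limma) with all Control mice and 1.08 (SE 0.18, adjusted p = 0.00486, limma) without mice 17 and 50. Without those 2 mice 5 genes were called higher (Slc16a3, Pfkfb3, Egln3, Bnip3 and Eno1), against 12.2% of all genes, and 0 lower, against 5.58%. How far the squamous, neutrophil and muscle RNA of those mice sets these values was not tested.

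The vasodilator peptide gene Adm averaged 5.31 FPKM in Control and 6.55 FPKM in AOM/DSS mice. Ankrd37 averaged 7.56 and 6.15 FPKM, the carbonic anhydrase Car9 37.5 and 33.04 FPKM, and the stress-response gene Ndrg1 40.3 and 49.8 FPKM. None of these 4 passed adjustment.

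The pentose phosphate genes did not pass adjustment either. G6pdx, the rate-limiting glucose-6-phosphate dehydrogenase, averaged 45.5 FPKM in Control and 52.7 FPKM in AOM/DSS mice, and the next dehydrogenase Pgd averaged 61.6 and 79.3 FPKM. Transaldolase Taldo1 averaged 219 and 207 FPKM. Transketolase Tkt averaged 138 and 140.1 FPKM as a sum, while its transcripts differed. The coding transcript averaged 107 FPKM in Control and 66.0 FPKM in AOM/DSS mice (log2 fold change -0.74, adjusted p = 0.0949 over all transcripts and 0.038 over genes summed from coding transcripts, limma). The retained-intron Tkt-206 averaged 13.98 and 36.6 FPKM (log2 fold change 1.38, adjusted p = 0.0161, limma) and Tkt-208 15.4 and 35.5 FPKM (adjusted p = 0.0161, limma). For the 40 genes, 92 tested transcripts that averaged at least 1 FPKM in a group were counted. With the most abundant P4ha2 transcript, these were the only 3 of the 92 to pass. Of all 40464 transcripts tested, which had no such cut, 6.94% passed.

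Fructose bisphosphatases run the reverse step of phosphofructokinase. Fbp2, the muscle isoform, measured 98.1, 97.5, 81.4, 81.3 and 95.9 FPKM in Control mice and 79.8, 75, 74.8, 50.3 and 61.5 FPKM in AOM/DSS mice, without overlap (log2 fold change -0.42, SE 0.13, adjusted p = 0.0435, limma). Fbp1, the liver isoform, averaged 0.866 and 0.629 FPKM, and its mean share of the pair was at most 0.944% in any group. The calls for Fbp2 and Aldoa were each lost in 10 of the 19 alternative fits, Control mice 17 and 50 left out among them, and Hk1 was lost without those mice too (log2 fold change -0.53, adjusted p = 0.084, limma). Leaving out AOM/DSS mouse 52 alone ended all 3 calls.

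**Figure D5:**
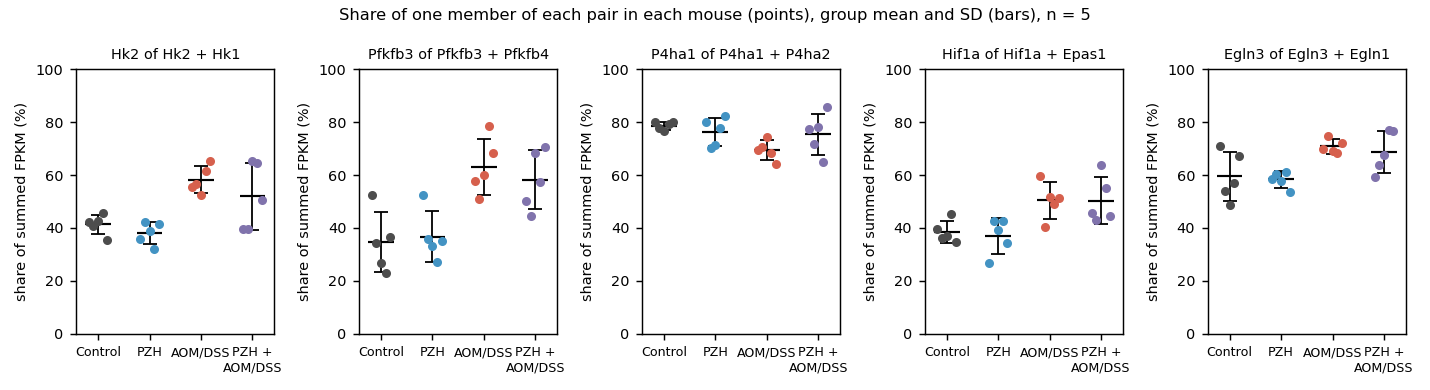
Share of 1 gene in the summed FPKM of a pair in each mouse (points), with the group mean and SD (bars, n = 5), in percent. Control and AOM/DSS means are 41.4% and 58.3% for Hk2 and 78.7% and 69.4% for P4ha1, both without overlap, while mice given PZH and AOM/DSS spread across both ranges.

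A wider list of 70 genes from the same pathways was counted beside the 40, and 62 of them were tested in AOM/DSS against Control. With limma and adjustment over all genes, 10 were higher and 9 lower, when 16.4% of all genes were higher and 7.23% lower. The risers included the hypoxia-inducible Hmox1 (4.65 and 19.9 FPKM in Control and AOM/DSS mice), Lox (2.15 and 7.70 FPKM) and Ddit4 (46.04 and 94.7 FPKM), and the myeloid glucose transporter Slc2a3 and hexokinase Hk3. The fallers included Slc16a1, the gluconeogenic Pck1 (49.2 and 17.6 FPKM), and the muscle-type enolase Eno3 (101 and 24.2 FPKM). The hypoxia target Fam162a fell as well, from 134.5 to 84.05 FPKM (log2 fold change -0.67, adjusted p = 0.0109, limma). Vegfa, a standard hypoxia target, stood at 9.88 and 9.47 FPKM.

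Other cell types moved in the same comparison. The 3 neutrophil markers that passed the filter, of 4, all rose, with summed levels of all 4 of 0.103 to 29.6 FPKM in Control and 87.1 to 494 FPKM in AOM/DSS mice. None of the 3 squamous markers tested passed, with Control mice 17 and 50 at summed levels of 298.8 and 249.4 FPKM. The 5 AOM/DSS sums of 11.4 to 34.8 FPKM lay below those 2 mice and above Control mice 37, 41 and 48 at 0.824 to 1.64 FPKM. The squamous markers were not tested without mice 17 and 50. Of 4 macrophage and monocyte markers 2 rose (171 to 357 FPKM and 275 to 431 FPKM). Of 5 absorptive colonocyte markers 4 fell (2403 to 4078 FPKM and 412 to 1359 FPKM), and all 5 smooth muscle markers fell (1646 to 3639 FPKM and 720 to 1275 FPKM). Also higher were 2 of 5 fibroblast, 2 of 4 endothelial, 2 of 4 T cell, 1 of 4 B and plasma cell and 1 of 5 red cell markers. Lower were 3 of 6 neuron and glia, 1 of 5 colon epithelium and 1 of 3 skeletal muscle markers, and the 1 adipocyte marker tested. No goblet or cycling marker passed. The part of these cell types in the changes of the 40 genes was not tested.

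The promoters of the 4 risers are shown because hypoxia-inducible factors bind the letters ACGTG or GCGTG. RefSeq windows (GRCm38.p6) were matched for 38 of the 40 genes, and in each the 250 bases before the start nearest the main transcript were searched on both strands. The 2 motifs share CGTG but cannot match the same 5 letters. At least 1 motif was found in 33 of the 38 (86.8%), against 38.6% of all 32851 windows, and ACGTG was found in 44.7% against 16.6%. Capitals mark the matches on either strand, CACGT and CACGC being the reverse complements. A match describes the letters and not a bound site. The list holds hypoxia targets by choice, and the set of all windows was not matched to it for base composition. For each of the 38 genes 1 window was taken, while the full set was not limited in this way. Whether hypoxia-inducible factors act on these genes was therefore not tested by the contrast.
Pfkfb3, chr2:11502091-11502340, minus strand: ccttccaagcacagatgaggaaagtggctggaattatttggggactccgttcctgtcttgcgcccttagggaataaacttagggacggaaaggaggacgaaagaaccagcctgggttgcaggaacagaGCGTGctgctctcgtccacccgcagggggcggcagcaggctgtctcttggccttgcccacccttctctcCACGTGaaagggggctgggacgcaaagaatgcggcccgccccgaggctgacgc
Slc16a3, chr11:120948817-120949066, plus strand: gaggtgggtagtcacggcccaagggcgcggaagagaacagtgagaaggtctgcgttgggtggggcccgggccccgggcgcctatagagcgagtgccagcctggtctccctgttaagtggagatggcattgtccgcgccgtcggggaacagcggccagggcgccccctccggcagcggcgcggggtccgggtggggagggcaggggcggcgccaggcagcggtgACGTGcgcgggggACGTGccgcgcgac
Egln3, chr12:54203875-54204124, minus strand: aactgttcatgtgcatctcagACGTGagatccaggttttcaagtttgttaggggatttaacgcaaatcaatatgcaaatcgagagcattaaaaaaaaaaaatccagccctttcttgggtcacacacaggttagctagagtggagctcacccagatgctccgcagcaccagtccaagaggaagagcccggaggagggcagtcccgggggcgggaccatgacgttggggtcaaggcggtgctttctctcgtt
P4ha2, chr11:54100674-54100923, plus strand: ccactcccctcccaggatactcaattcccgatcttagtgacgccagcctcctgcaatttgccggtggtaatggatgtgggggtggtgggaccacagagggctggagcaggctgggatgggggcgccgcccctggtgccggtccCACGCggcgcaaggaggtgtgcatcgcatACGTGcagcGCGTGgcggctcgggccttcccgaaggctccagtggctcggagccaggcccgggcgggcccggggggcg

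These windows held 3, 2, 1 and 3 matches. In the Pfkfb3 window the stretch CACGTG counts as 2 of the 3, because CACGT and ACGTG overlap in it. The Slc16a3 window lies 587 bases from the start of its main transcript and the other 3 within 39 bases. The windows of Pfkfb4, Gapdh and Eno2 lie 25478, 3246 and 1336 bases from the start of their main transcript, and Pfkfb4 (1 match) and Gapdh (2 matches) count among the 33. Windows of genes that were not called held them too, for example 5 matches for Bnip3, 3 for Pgam1 and 3 for P4ha1.

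The second comparison asked what PZH changed in the disease model. Slc16a3 averaged 0.328 of its AOM/DSS mean in PZH + AOM/DSS mice, Adm 0.495, P4ha2 0.662 and Pfkfb3 0.718, and Tkt averaged 1.22 times its AOM/DSS mean. These 5 genes were past an unadjusted and not an adjusted threshold. None of the 40 passed an adjusted p of 0.05 with limma, when 0.00629% of 15888 genes did, and 5 of the 40 passed an unadjusted p of 0.05, when 11.7% of all genes did. With a change of more than 2-fold on the FPKM + 1 scale of the fit as well, 1 passed (Slc16a3), against 2.4% of all genes. The median log2 fold change was -0.09 over the 40 genes and -0.04 over all genes.

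Slc16a3 measured 4.16, 4.95, 4.99, 32.95 and 10.4 FPKM in PZH + AOM/DSS mice 2, 13, 15, 35 and 36, beside 19.8 to 53.3 FPKM in AOM/DSS mice. Only mouse 35 overlapped the AOM/DSS mice, and mice 2, 13 and 15 lay near Control mice 37, 41 and 48 at 2.56 to 4.67 FPKM. The log2 fold change was -1.86 (SE 0.50, 95% interval -2.96 to -0.76, unadjusted p = 0.00345, adjusted p = 0.356, limma).

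Mouse 35 decided whether calls were made here. Without it, 808 of 15639 genes passed the adjusted threshold instead of 1, Slc16a3 among them (log2 fold change -2.33, SE 0.32, adjusted p = 0.00745, limma). Of all genes 0.761% were called higher and 4.41% lower. Among the 40 genes 8 had an unadjusted p under 0.05, against 21.7% of all genes. P4ha2 also passed adjustment (-0.62, SE 0.15, adjusted p = 0.0497, limma). That made 2 of the 40 called lower, against 4.41% of all genes. The neutrophil sum of mouse 35 was 251 FPKM and its absorptive colonocyte sum 743 FPKM, against 1741 to 2256 FPKM in the other 4 mice. Both sums lay inside the AOM/DSS ranges. The labels give no ground to set this mouse aside, and whether cell composition sets its values was not tested.

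P4ha2 measured 2.49, 3.08, 2.53, 4.51 and 1.94 FPKM in PZH + AOM/DSS mice, with mouse 35 alone inside the AOM/DSS range (log2 fold change -0.48, SE 0.18, unadjusted p = 0.0224, adjusted p = 0.371, limma). Adm measured 7.93, 6.97, 4.15, 6.94 and 6.77 FPKM in AOM/DSS mice and 0.898, 3.09, 3.56, 4.42 and 4.26 FPKM in PZH + AOM/DSS mice. The groups overlapped only through AOM/DSS mouse 33, and the log2 fold change was -0.90 (SE 0.28, unadjusted p = 0.00958, adjusted p = 0.356, limma).

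Pfkfb3 measured 4.49, 5.44, 10.5, 7.48 and 7.28 FPKM in PZH + AOM/DSS mice. Mouse 15 lay within the AOM/DSS range and the other 4 below it, and all but mice 2 and 13 lay above the highest Control mouse. The log2 fold change was -0.47 (SE 0.19, unadjusted p = 0.0306, adjusted p = 0.389, limma). Egln1 was the only 1 of the 40 whose groups did not overlap, where 1.08% of all genes did not: it measured 24.2, 25, 23.3, 25 and 23.9 FPKM in AOM/DSS mice and 22.7, 21.9, 19.4, 19.4 and 23 FPKM in PZH + AOM/DSS mice, with an unadjusted p of 0.0592 (limma).

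Tkt measured 139, 131, 167, 139 and 124 FPKM in AOM/DSS mice and 189, 149, 183, 157 and 176 FPKM in PZH + AOM/DSS mice. The groups overlapped, and the log2 fold change was 0.28 (SE 0.11, unadjusted p = 0.0239, adjusted p = 0.375, limma). On protein-coding transcripts alone it was -0.11 (unadjusted p = 0.812, limma). The means were 66.0 and 72.0 FPKM for the coding transcript, 36.6 and 47.05 FPKM for Tkt-206 and 35.5 and 48.6 FPKM for Tkt-208.

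The other genes called in the model were not called here. Hk1 measured 58, 61.9, 31.7, 32.8 and 48.6 FPKM in PZH + AOM/DSS mice, 3 of them above and 2 inside the AOM/DSS range. Egln3 measured 32.8, 38.6, 40.3, 64.7 and 75.2 FPKM, with mice 35 and 36 as high as AOM/DSS mice (log2 fold change -0.30, 95% interval -0.79 to 0.19). Fbp2 (0.08, -0.24 to 0.41) and Aldoa (0.04, -0.27 to 0.35) had intervals that held 0 and whose upper ends lay just under the sizes of their falls in the model, 0.42 and 0.37.

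Of the hypoxia targets, 6 of 7 had a negative log2 fold change and only Car9 a positive one, when 43.4% of all genes tested were positive. In PZH against Control 5 of the 7 were negative, when 51.3% of all genes tested were positive. Among them Bnip3 measured 18.3, 16.9, 10.7, 30.2 and 24.2 FPKM (unadjusted p = 0.0517, limma) and Ndrg1 averaged 40.96 FPKM beside 49.8 in AOM/DSS mice. All 4 hypoxia-factor and hydroxylase genes were negative too, Hif1a and Epas1 by less than 0.01. Of the 63 wider pathway genes tested, 0 passed adjustment with limma. Without adjustment 8 passed (limma), when 11.7% of all genes did. Of these 8, Ddit4, Lox, Hmox1, Angptl4, Mpc2 (log2 fold change -0.96) and P4ha3 (-0.24) were lower, and Hkdc1 (0.35) and Pfkfb2 (0.29) higher. Slc16a1 measured 65.9, 76.3, 50.2, 36.2 and 60.9 FPKM, above all AOM/DSS mice except in mouse 35. At an unadjusted p of 0.05 (limma), all 3 neutrophil, 4 of 5 red cell and 1 of 5 fibroblast markers were lower. At the same threshold 4 of 5 absorptive colonocyte and 1 of 6 colon epithelium markers were higher. None of these passed adjustment.

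PZH without the disease model was compared with Control. None of the 40 passed adjustment with limma, when 0.00645% of 15506 genes did, and 4 passed an unadjusted p of 0.05, when 8.84% of all genes did. All 4 were lower: Adm (log2 fold change -0.70), Ldhb (-0.49), Pfkfb4 (-0.34) and Slc2a1 (-0.30). With Control mice 17 and 50 left out only 1 passed, when 7.03% of all genes did. Without Control mouse 17 or 50 or PZH mouse 53 alone 1 passed too, against 7.93%, 7.06% and 6.53% of all genes. Without Control mouse 37 alone 7 passed, when 9.36% of all genes did.

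Pfkfb4 was the only 1 whose groups did not overlap, where 1.81% of all genes did not, at 5.7, 6.03, 5.77, 6.95 and 5.39 FPKM in Control and 3.13, 4.65, 5.27, 4.75 and 4.85 FPKM in PZH mice. PZH mice 8 and 46 were the 2 highest of their group in 14 of the 40 genes, a position they held in 10.7% of all genes. Slc16a3 measured 6.21, 4, 3, 4.2 and 2.52 FPKM in PZH mice, within or just below the range of Control mice 37, 41 and 48 except for mouse 8.

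Between PZH + AOM/DSS and Control mice none of the 40 passed adjustment with limma, when 2.42% of 15616 genes did, and 5 passed an unadjusted p of 0.05, when 20.9% of all genes did. Pfkfb3 (log2 fold change 0.92) and Tkt (0.32) were higher, and Fbp1 (-0.51), Pfkp (-0.39) and Fbp2 (-0.34) lower. With Control mice 17 and 50 left out, only Pfkfb3 of these still passed (limma). Egln3, Eno1 and G6pdx then passed too, making 4 of 39 genes tested, when 15.3% of all genes did. In that fit 29 of 15180 genes passed adjustment, none of the 40 among them. The group comparisons share their Control or AOM/DSS mice, so their fold changes are not independent.

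Whether PZH acted differently with and without AOM/DSS was tested as an interaction over all 20 mice. With limma 0 of the 40 passed adjustment, when 0.0118% of 16936 genes did, and 0 passed an unadjusted p of 0.05, when 10.3% of all genes did. The nearest was Slc16a3 at -1.30 (SE 0.65, unadjusted p = 0.0611, adjusted p = 0.503), followed by P4ha2 at -0.49 (SE 0.25) and Ndrg1 at -0.37 (SE 0.19), both with an unadjusted p of 0.0654 (limma). Without mouse 35 of the PZH + AOM/DSS group, 476 genes passed adjustment instead of 2, and 2 of the 40 (P4ha2 and Slc16a3) passed an unadjusted p of 0.05, when 16.1% of all genes did (limma). With array weights 130 genes passed adjustment, and the 2 genes at an unadjusted p of 0.05 were again P4ha2 and Slc16a3, when 14.9% of all genes passed it (limma). In both fits 0 of the 40 passed adjustment.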

How the data were processed

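Total colon RNA was rRNA-depleted and, per the study's methods, then taken through poly(A) isolation, a step the labels do not mention; 1 library was sequenced per mouse. The authors checked read quality with FastQC (0.11.5), filtered reads with NGSQC (2.3.3), aligned them with HISAT2 (2.1.0) to mm10, and assembled and quantified transcripts with StringTie (1.3.3b). The deposited values are FPKM per transcript, so no count test was run. Depth is not given: 30.3% to 45.1% of low values lay within 0.02 of a whole step, too few to recover reads. Assembled transcripts without an Ensembl name held 12.1% to 14.8% of FPKM and entered no gene sum. The count of fragments behind a value could not be recovered, so no counting interval is given.

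Ensembl transcripts were summed per gene (GENCODE M21, GRCm38). A second gene with the symbol Aldoa was left out. Genes with at least 0.5 FPKM in 5 mice of a comparison were fitted with limma (3.58.1, R 4.3.3, intensity trend) on log2(FPKM + 1), which understates changes of low genes, with Benjamini-Hochberg adjustment over all genes fitted. The fit was tested on simulated data. Fold levels between groups are ratios of mean FPKM, but counts of genes past 2-fold use the fitted fold on the FPKM + 1 scale. All 40 genes are named. Values in every mouse are given where adjusted p was under 0.05 or groups did not overlap in the 2 main comparisons, and for Gapdh. Genes with an unadjusted p under 0.05, Bnip3, Hk2 and Slc16a1 were added after their values were seen. The members, lists and tests were chosen with earlier results of these data known. A gene of the wider pathway list is counted but not reported here. The labels do not say whether mice shared cages or litters. Alternatives changed scaling, filter, pseudocount, weights, transcripts or the mice included. Figures were drawn with matplotlib (3.10.9).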

Additional observations from a re-analysis of the deposited data

Results flagged for a closer look

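In a group of 5 mice, a highest or lowest mouse was set apart when its gap to the nearest mouse exceeded 0.71 of the group's range. Of the 160 combinations of gene and group 12 met this (7.5%), and chance gives about 1 in 20. Gapdh met it in 3 groups, with Control mouse 50 at 65.319 FPKM, PZH mouse 53 at 34.236 FPKM and PZH + AOM/DSS mouse 35 at 79.456 FPKM. PZH + AOM/DSS mouse 35 also stood apart for Slc16a3, at 32.953 FPKM with the next mouse at 10.4 FPKM, and mouse 36 for Ndrg1 at 51.113 FPKM. In Control mice, mouse 17 was high for Pfkfb3 at 6.283 FPKM, mouse 37 low for Hk1 at 46.561 FPKM, and mouse 48 low for Pfkl at 28.417 FPKM and for P4ha2 at 2.155 FPKM. In PZH mice, mouse 8 was high for Pfkl at 59.453 FPKM and low for Pfkfb4 at 3.131 FPKM, and mouse 46 was high for Taldo1 at 254.506 FPKM. No interaction passed adjustment.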

How the results depend on the processing

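Leaving out each mouse in turn, genes called higher with AOM/DSS numbered 3 to 6, when 11.1% to 15.9% of all genes were. Genes called lower numbered 0 to 3, when 5.23% to 7.02% of all genes were. Unadjusted calls numbered 3 to 8 in PZH + AOM/DSS against AOM/DSS, when 7.95% to 21.7% of all genes passed. They numbered 1 to 7 in PZH against Control (all genes 6.53% to 10.6%) and 0 to 2 in the interaction (7.81% to 16.1%). Adjusted calls in PZH + AOM/DSS against Control numbered 0 to 0, when 78 to 495 of all genes passed. With the highest transcript of each gene, 1 was called higher in AOM/DSS mice (12.8% of all genes) and 1 lower (5.64%). In the interaction 1 passed with it, when 9.58% of all genes did. Without the low-value filter 1 was called lower, when 3.32% of all genes were. Array weights gave 8 in PZH + AOM/DSS against AOM/DSS (19.4% of all genes) and 2 in the interaction (14.9%). Fitting 1 model of all 20 mice gave 1 in PZH + AOM/DSS against Control, when 1503 of 15616 genes passed adjustment. The fits without Control mice 17 and 50, without PZH mice 8 and 46 and with protein-coding transcripts alone were chosen after the data were seen. Without the Control mice, 0 were called lower in AOM/DSS mice, when 5.58% of all genes were. In PZH against Control 1 then passed (all genes 7.03%) and 1 in the interaction (8.94%). Without the PZH mice 2 passed in PZH against Control (8.4%) and 1 in the interaction (9.34%). With protein-coding transcripts alone 1 passed in the interaction (10.7%). Among called genes only Tkt in PZH + AOM/DSS against AOM/DSS changed direction, to -0.1142 with its highest transcript and -0.1142 with protein-coding transcripts. No paired analysis was possible because mouse numbers are not shared between groups. Slc16a3 kept its call in 18 of 19 alternatives in AOM/DSS against Control, P4ha2 in 18, Pfkfb3 in 17, Hk1 in 17, Fbp2 and Aldoa in 9 and Egln3 in 8; the cause was not tested. Leave-one-out results without AOM/DSS mouse 52, 44 or 33 or Control mouse 17 or 50 each left at most 1 gene called lower. In those fits 5.23% to 6.64% of all genes were called lower. Depth was not given and limits low genes such as Fbp1.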
